A study of Mus musculus with 18 samples.

Results

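Branched-chain amino acid catabolism was followed through the genes of 10 of its proteins, Bcat1, Bcat2, Bckdha, Bckdhb, Dbt, Bckdk, Ivd, Mccc1, Mccc2 and Hibch. They were found by gene symbol in a table of estimated counts with 54347 rows, each symbol matched 1 row, and all 10 were among the 18728 genes with enough counts to be tested. The counts came from polyadenylated RNA of brown fat from between the shoulder blades (iBAT) and of white fat from the inguinal (iWAT) and the epididymal depot (eWAT), all taken from 6 mice of 12 weeks. The 3 knockout mice (ko, ΔGm15551) lacked a stretch of the genome with exon 1 of the long noncoding RNA gene Gm15551 in the whole body after a deletion made with CRISPR/Cas9, and the other 3 were wild type (wt). All animals were on the C57BL/6N background, the strain label of the wild type libraries names the ΔGm15551 line too, were fed chow, and each gave 1 library per tissue, which makes 18 libraries in 6 groups of 3. Bulk tissue was sequenced, so that fewer cells of a type and less RNA per cell cannot be told apart.

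Leucine, isoleucine and valine are broken down inside mitochondria. The branched-chain aminotransferases, Bcat1 in the cytosol and Bcat2 in mitochondria, remove the amino group, and the branched-chain ketoacid dehydrogenase (BCKDH) complex then oxidises the ketoacids in the committed step, which the kinase Bckdk shuts off and the phosphatase Ppm1k restores. Leucine carbon goes on through Ivd and the carboxylase built from Mccc1 and Mccc2, valine carbon through Hibch, and the ends of both routes enter the citric acid (TCA) cycle. Adipose tissue is one of the known sites of this pathway, and brown fat is known to burn branched-chain amino acids in the cold.

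Promoter sequence was printed for the 3 genes of the leucine branch and for the kinase, since the leucine genes carried the CCAAT letters repeatedly and the kinase gene had a clear tissue difference. The sequences are from RefSeq (GRCm38.p6), run 5′ to 3′ on the strand of the gene, and cover what lies within 250 bases before the first listed start and outside annotated exons. Capitals mark the letters searched for, which were CCAAT (the letters bound by NF-Y), then GGGCGG (by SP1), then CACGTG (an E-box) and lastly AAGGTCA (by oestrogen-related receptors). Both strands were searched, so that the reverse complement of each is also in capitals. Ivd lies at chr2:118861744-118861953 on the plus strand, Mccc1 at chr3:36000712-36000928 and Mccc2 at chr13:100015640-100015889 on the minus strand, and Bckdk at chr7:127903823-127904072 on the plus strand.
Ivd: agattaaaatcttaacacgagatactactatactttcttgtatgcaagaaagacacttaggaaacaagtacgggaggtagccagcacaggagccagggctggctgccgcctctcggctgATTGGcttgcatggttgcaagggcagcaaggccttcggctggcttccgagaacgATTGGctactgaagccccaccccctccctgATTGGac
Mccc1: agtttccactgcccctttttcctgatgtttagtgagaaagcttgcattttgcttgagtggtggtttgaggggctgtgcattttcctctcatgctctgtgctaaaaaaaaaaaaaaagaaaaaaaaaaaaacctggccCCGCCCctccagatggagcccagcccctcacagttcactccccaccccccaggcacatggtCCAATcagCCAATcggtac
Mccc2: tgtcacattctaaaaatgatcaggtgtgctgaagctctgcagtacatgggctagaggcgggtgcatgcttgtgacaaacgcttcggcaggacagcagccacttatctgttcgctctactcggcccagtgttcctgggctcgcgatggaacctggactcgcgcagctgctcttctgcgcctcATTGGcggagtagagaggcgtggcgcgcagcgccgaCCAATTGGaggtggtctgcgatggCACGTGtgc
Bckdk: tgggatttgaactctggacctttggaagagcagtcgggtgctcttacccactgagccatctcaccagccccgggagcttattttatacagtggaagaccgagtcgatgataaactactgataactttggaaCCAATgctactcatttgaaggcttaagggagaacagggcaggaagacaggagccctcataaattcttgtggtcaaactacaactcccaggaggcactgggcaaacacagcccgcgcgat
Over the whole 250 bases, CCAAT stood 4 times before Ivd, 3 times before Mccc1, 3 times before Mccc2, where matches on opposite strands overlap once, and 1 time before Bckdk. Of the 9 genes with an entry at their first start, 6 held CCAAT, compared with 33.8% of 32851 promoters of this length in the table. GGGCGG was found for 3 of the 9 (32.7% of all), CACGTG for 1 (6.02%) and AAGGTCA for 0 (4.08%). The shares of all promoters include further starts of a gene, whereas the 9 genes were counted at their first start only. The second starts listed for Bcat1, Bcat2 and Bckdhb held none of the letters searched for, so these counts and shares are not on the same basis. Dbt had no entry. These matches are letters in a window and were not tested as binding sites.

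The samples were first checked against their labels. Gm15551 had 40 to 316 counts in the wild type libraries and 0 to 4 counts in the knockout libraries, with a log2 fold change of -7.76 across tissues. The thermogenic marker Ucp1 ranged from 3422 to 7994 CPM (counts normalised to the effective library size) in iBAT, with at most 55.3 CPM in iWAT and 1.34 CPM in eWAT. The inguinal marker Tbx15 and the epididymal marker Wt1 were highest in iWAT and eWAT, respectively. Total counts per library were 14997901 to 34389586, and genes of the mitochondrial genome took 22.9% to 27.0% of the counts in iBAT and 3.77% to 9.64% in the white tissues. In 4 libraries, markers of another tissue stood out. Summed over 8 genes, skeletal muscle markers reached 4482 CPM in iWAT ko replicate 1, with at most 5.91 CPM in the iWAT libraries outside these 4. Lymphocyte markers (7 genes) reached up to 815 CPM in iWAT wt replicate 3 and were also high in iWAT ko replicate 2, with at most 18.7 CPM in the other iWAT libraries, and macrophage markers (4 genes) reached 1340 CPM. In eWAT ko replicate 3, epididymis markers (4 genes) summed to 4821 CPM, and testis markers (4 genes) to 65.2 CPM. The next library in epididymis markers was eWAT wt replicate 1 with 16.4 CPM, where the other 4 eWAT libraries had 0.0858 to 2.12 CPM. Markers shared by all adipocytes (6 genes) summed to as little as 7896 CPM in iWAT and 9971 CPM in eWAT over all libraries, and to at least 19889 and 15463 CPM without these 4. The counts of called genes are therefore given with and without these 4 libraries for the main test, and values of single genes where their call changed or their value moved by over 1.5 times. The counts for the 10 genes are also given without eWAT wt replicate 1 in addition, which has the lowest adipocyte sum of the rest (15463 CPM). The part of the other tissues in any result was not tested.

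The genes of the oxidative steps were mostly higher in brown than in white fat, while both aminotransferase genes were lower. In iBAT compared with iWAT, 6 of the 10 genes rose (Bckdha, Bckdhb, Dbt, Bckdk, Mccc2 and Hibch), 2 fell (Bcat1 and Bcat2) and 2 did not pass the test (Ivd and Mccc1). Of all genes tested, 54.3% passed, 24% being higher and 30.3% lower, in this comparison at an adjusted p under 0.05 (edgeR quasi-likelihood test with Benjamini-Hochberg adjustment over all genes, as for all adjusted p of single genes). In iBAT compared with eWAT, 8 genes rose and 2 fell, against 24.4% and 30.2% of all genes (54.6% in either direction). With the mouse as a block in the fit, the counts for the 10 genes were the same, where 55.6% of all genes passed against iWAT, 55.7% against eWAT and 9.25% between the white tissues. The median log2 fold change of the 10 genes was 0.71 against iWAT and 0.83 against eWAT, with -0.14 and -0.17 over all genes. These 2 comparisons share the iBAT libraries, and the 3 tissues come from the same mice. Without the 4 libraries named above, the counts were again 6 higher and 2 lower against iWAT, where 20.7% of all genes were higher and 24.6% lower, and 8 higher and 2 lower against eWAT (25.7% and 31.4%). Without eWAT wt replicate 1 as well, they were the same (22.2% and 26.8% of all genes against iWAT, 26.4% and 30.3% against eWAT). With wild type libraries only, 4 genes were higher and 1 lower in each comparison, where 17.9% of all genes were higher and 19.8% lower against iWAT, and 19.4% and 18.3% against eWAT. In those 9 libraries Bcat2, Bckdhb and Mccc2 lost both calls, and Ivd and Mccc1 lost theirs against eWAT.

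**Figure D1:**
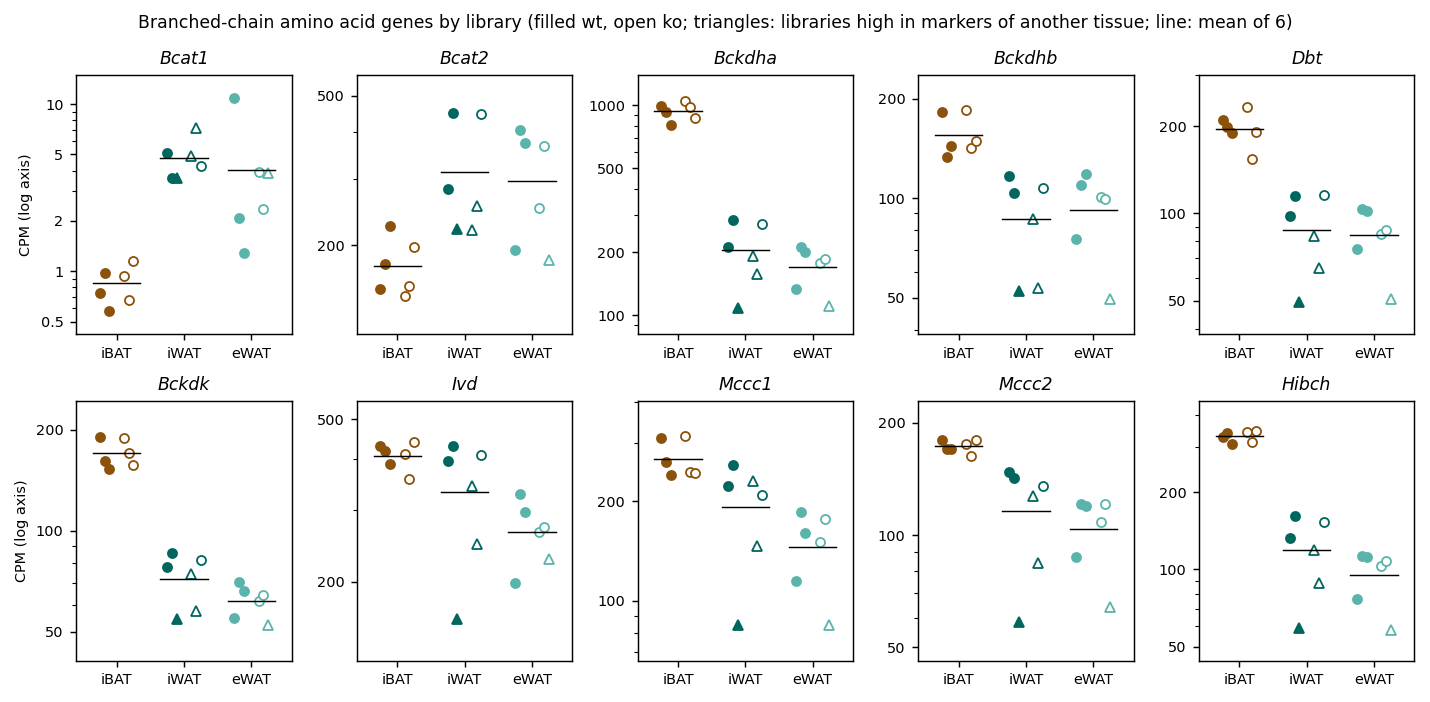
CPM of the 10 genes (log axes that do not start at 0 and differ between panels) in each of the 18 libraries by tissue, with filled symbols for wt, open symbols for ko, triangles for the 4 libraries high in markers of another tissue and a line at the mean of 6. Bckdha sits at 806 to 1041 CPM in iBAT and at 285 CPM or less in both white tissues, while Bcat1 stays at 1.16 CPM or less in iBAT.

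Both genes of transamination, the reversible first step, fell in iBAT. All 4 macrophage markers fell there too, by medians of 2.80 against iWAT and 1.94 against eWAT on the log2 scale. Without the 4 libraries the median log2 fold changes were -1.74 and -2.11. The sums of these markers were then 44.2 to 115 CPM in iBAT, 180 to 288 CPM in iWAT and 299 to 452 CPM in eWAT. The part of macrophages in the fall of Bcat1 and Bcat2 was not tested. Bcat1 (chromosome 6, 144993835 to 145076184, minus strand; GRCm38) ranged from 0.582 to 1.16 CPM in iBAT (median 0.841), from 3.63 to 7.19 CPM in iWAT (median 4.56) and from 1.28 to 10.8 CPM in eWAT (median 3.11). Every iBAT library was below every iWAT and eWAT library, but these are 9 to 18 counts per iBAT library, close to the limit of 3 counts that a count of 0 allows. The log2 fold change of Bcat1 was -2.49 ± 0.43 (SE, n = 6 per tissue) against iWAT, with an adjusted p of 0.000142 from edgeR, and -2.26 ± 0.43 against eWAT, with an adjusted p of 0.000307. The second value was -1.56 without eWAT wt replicate 1, the library with 10.8 CPM, -1.50 in limma voom and -1.47 without that library and the 4 others, and Bcat1 passed in each. Bcat2, the mitochondrial enzyme and by far the more abundant transcript, ranged from 147 to 225 CPM in iBAT (median 167), from 220.3 to 449 CPM in iWAT (median 269) and from 183 to 406 CPM in eWAT (median 309). Here the groups overlapped, since iBAT wt replicate 3 with 225 CPM lay above the lowest libraries of both white tissues. Bcat2 differed by -0.83 ± 0.24 from iWAT (adjusted p from edgeR 0.00685) and by -0.75 ± 0.24 from eWAT (adjusted p 0.0130). The call against eWAT was lost without the mouse wt replicate 2 (adjusted p 0.0532) or the mouse ko replicate 2 (adjusted p 0.0716), and with wild type libraries only neither call was made (adjusted p 0.101 against iWAT and 0.0921 against eWAT). Exons of 0610005C13Rik on the opposite strand cover 15.9% of the exon length of Bcat2, and whether counting used strand is not given in the sources used here. That gene held 1 to 85 counts, and adding them to Bcat2 left the differences at -0.84 and -0.75.

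The largest rise among the 10 genes was in the BCKDH complex. Bckdha encodes the E1 alpha subunit, which holds the serines that the kinase phosphorylates (chromosome 7, 25629946 to 25658981, minus strand). It ranged from 806 to 1041 CPM in iBAT (median 953), from 109 to 285 CPM in iWAT (median 202) and from 110 to 212 CPM in eWAT (median 181). The lowest iBAT library was above the highest white library in both cases. The log2 fold change was 2.19 ± 0.22 against iWAT (adjusted p from edgeR 3.71e-07) and 2.46 ± 0.22 against eWAT (adjusted p 8.15e-08), and 1.85 and 2.35 without the 4 libraries. On the opposite strand, exons of B3gnt8 overlap 1171 bp of Bckdha, 61.7% of its exon length, so reads there could be divided between both genes. B3gnt8 held 73 to 581 counts per library where Bckdha held 2228 to 15924, and adding them gave 2.14 and 2.40.

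Bckdhb, the E1 beta subunit, rose less than its partner. It ranged from 134 to 185 CPM in iBAT (median 146), from 52.4 to 117 CPM in iWAT (median 95.1) and from 49.7 to 119 CPM in eWAT (median 100.1), and iBAT did not overlap with either. Its log2 fold changes were 0.85 ± 0.22 (adjusted p from edgeR 0.00412) and 0.76 ± 0.22 (adjusted p 0.00831), and the first was 0.50 without the 4 libraries. With wild type libraries only, Bckdhb did not pass (adjusted p 0.0763 and 0.146). Dbt, the E2 core onto which the complex is built, ranged from 154 to 232 CPM in iBAT (median 195), from 49.5 to 116 CPM in iWAT (median 90.8) and from 50.5 to 103 CPM in eWAT (median 86.2). All iBAT libraries were above all white libraries, with differences of 1.16 ± 0.20 (adjusted p from edgeR 0.000146) and 1.23 ± 0.20 (adjusted p 7.48e-05). Bckdk, the inhibitory kinase, had the smallest standard error of the 10. It ranged from 152 to 191 CPM in iBAT (median 166), from 54.4 to 85.5 CPM in iWAT (median 76.2) and from 52.4 to 70.1 CPM in eWAT (median 63.0). It too was higher in every iBAT library, by 1.24 ± 0.12 against iWAT (adjusted p from edgeR 2.58e-07) and 1.47 ± 0.12 against eWAT (adjusted p 2.87e-08).

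Of the 3 genes of the leucine branch, Mccc2 passed the test against iWAT and all 3 passed against eWAT. Ivd, the dehydrogenase that follows the complex, ranged from 356 to 439 CPM in iBAT (median 414), from 162 to 430 CPM in iWAT (median 369) and from 198 to 328 CPM in eWAT (median 268). The iBAT libraries overlapped with iWAT and were all above eWAT. Its log2 fold change was 0.30 ± 0.20 against iWAT, with an adjusted p of 0.209 from edgeR, and 0.62 ± 0.20 against eWAT, with an adjusted p of 0.0129. Without the 4 libraries the difference from iWAT was -0.02, and without the mouse wt replicate 1 the call against eWAT was lost (adjusted p 0.0632). Mccc1, the biotin-carrying subunit of the carboxylase, ranged from 239 to 314 CPM in iBAT (median 253), from 84.6 to 257 CPM in iWAT (median 215) and from 84.2 to 185 CPM in eWAT (median 155). It overlapped between iBAT and iWAT, where the difference was 0.49 ± 0.23 (adjusted p from edgeR 0.0852; 0.0465 without iWAT wt replicate 2), and did not overlap between iBAT and eWAT, where it was 0.89 ± 0.23 (adjusted p 0.00408). Without the 4 libraries the first difference was 0.23. Mccc2, the other subunit, ranged from 163 to 180.4 CPM in iBAT (median 173), from 58.5 to 148 CPM in iWAT (median 132) and from 64.3 to 121 CPM in eWAT (median 114). All iBAT libraries were above all white libraries in CPM, which rests on the scaling factors given above. Before scaling, Mccc2 held 2175 to 2907 counts per iBAT library, 1773 to 4546 per iWAT library and 1299 to 4986 per eWAT library. The differences of Mccc2 were 0.58 ± 0.20 (adjusted p from edgeR 0.0221) and 0.74 ± 0.20 (adjusted p 0.00496). The first was 0.28 without the 4 libraries (adjusted p 0.0349), and its call was lost without iWAT ko replicate 2 (adjusted p 0.0594), without the mouse ko replicate 1 (0.0533), without the mouse ko replicate 2 (0.0812), with no filter on low counts (0.0544) and with wild type libraries only (0.170, and 0.121 against eWAT).

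Hibch, the hydrolase that frees the valine carbon from coenzyme A (chromosome 1, 52844929 to 52920986, plus strand), ranged from 307 to 346 CPM in iBAT (median 334), from 59.3 to 161 CPM in iWAT (median 126) and from 57.8 to 113 CPM in eWAT (median 106). The iBAT libraries lay close together and far above the others. Hibch differed by 1.47 ± 0.21 from iWAT (adjusted p from edgeR 2.46e-05) and by 1.80 ± 0.22 from eWAT (adjusted p 2.59e-06). Counted over libraries, 6 of the 10 genes were higher in every iBAT library than in any iWAT library and 1 was lower, where 17.7% and 16.9% of all genes behaved so (34.6% in either direction). Against eWAT these were 8 and 1, where 18.8% and 18.6% of all genes did (37.3% in either direction). These counts became 6 and 2 without the 4 libraries against iWAT (21.1% and 23.6% of all genes), with Bcat2 now apart, and 8 and 1 against eWAT (21.6% and 23.7%).

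The other 17 mitochondrial proteins of the pathway were nearly all higher in iBAT. Against iWAT all 17 rose, where 24% of all genes did, by log2 fold changes of 0.51 to 2.38 (median 1.40). Against eWAT 16 rose (median 1.65), where 24.4% of all genes did, the exception being Acadsb, the isoleucine acyl-CoA dehydrogenase, with 0.36 ± 0.17 (adjusted p from edgeR 0.0942). Dld, the E3 subunit that BCKDH shares with pyruvate dehydrogenase, had the highest values of the 17, 2.38 ± 0.22 and 2.75 ± 0.23. Ppm1k, the phosphatase that counters Bckdk, rose by 0.61 ± 0.20 (adjusted p from edgeR 0.0152) and 1.16 ± 0.20 (adjusted p 0.000109). Leaving out the 4 libraries, 15 of the 17 rose against iWAT (median 1.15; 20.7% of all genes) and 17 against eWAT (median 1.56; 25.7%). Ppm1k then had 0.53 against iWAT (adjusted p from edgeR 0.0790), Aldh6a1, a dehydrogenase of the valine route, 0.19 (adjusted p 0.298, compared with 0.51 and 0.0460 with all libraries), and Acadsb 0.32 against eWAT (adjusted p 0.0204). The call of Ppm1k against iWAT was also lost without the mouse wt replicate 2 (adjusted p from edgeR 0.0561) or ko replicate 2 (0.0519), and those of Aldh6a1 in both comparisons with several single libraries left out. All 6 genes of the propionyl-CoA route, which takes valine and isoleucine carbon to succinyl-CoA, rose in both comparisons, with medians of 1.77 and 2.03. For comparison, the 16 genes of the TCA cycle all rose as well, with medians of 2.81 and 3.25, which is above the median of the 10 genes in both. Of the pyruvate dehydrogenase subunits and kinases, 7 rose and 1 fell (Pdk3) in each comparison, where 30.3% and 30.2% of all genes fell. The counts of these 3 lists were the same without the 4 libraries, with medians of 1.48 and 1.93 for the propionyl-CoA route and of 2.54 and 3.17 for the TCA cycle.

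Transport went in both directions. Slc25a44, the mitochondrial carrier for branched-chain amino acids, ranged from 132 to 232 CPM in iBAT, from 36.01 to 117 CPM in iWAT and from 45.6 to 72.6 CPM in eWAT. It rose by 1.10 ± 0.23 (adjusted p from edgeR 0.000751) and 1.53 ± 0.23 (adjusted p 3.37e-05). At the cell surface, Slc7a5, the light chain of the large neutral amino acid exchanger, fell to 0.676 to 1.72 CPM in iBAT, compared with 1.69 to 17.9 CPM in iWAT, where 1 library reached into the iBAT range, and 4.89 to 23.1 CPM in eWAT. The iBAT values of Slc7a5 are only 9 to 22 counts per library. Its log2 fold changes were -2.69 ± 0.62 (adjusted p from edgeR 0.00147) and -3.44 ± 0.63 (adjusted p 0.000201). In iWAT, the 3 libraries with other-tissue markers had 4.76 to 17.9 CPM of Slc7a5 and the remaining 3 had 1.69 to 3.54 CPM. In eWAT, 23.1 CPM was reached by ko replicate 3 and by wt replicate 1, the 2 libraries highest in epididymis markers, and the other 4 had 4.89 to 7.29 CPM. Slc7a5 without the 4 libraries differed by -1.20 from iWAT (adjusted p from edgeR 0.0587) and by -3.10 from eWAT (adjusted p 3.05e-05). With eWAT wt replicate 1 left out as well, it differed by -1.29 from iWAT (adjusted p from edgeR 0.00242) and by -2.51 from eWAT (adjusted p 2.40e-06). The part of other tissues in the difference was not tested. Its heavy chain Slc3a2 fell by 0.72 and 1.004, and the transporters Slc7a8 and Slc43a1 fell as well, while Slc43a2 had 0.33 ± 0.22 against iWAT (adjusted p from edgeR 0.229) and rose by 0.63 ± 0.23 against eWAT (adjusted p 0.0255). Klf15, a transcription factor known to control these enzymes, did not pass the test, with -0.32 ± 0.27 (adjusted p from edgeR 0.344) and -0.02 ± 0.27 (adjusted p 0.948). The calls of Klf15 and Slc43a2 changed when the 4 libraries were left out, where both passed against iWAT, Klf15 with -0.64 (adjusted p from edgeR 0.0196) and Slc43a2 with 0.92 (adjusted p 0.000266). The call of Slc43a2 against eWAT was lost without the mouse ko replicate 1 (adjusted p from edgeR 0.0727) and with several other libraries left out, and that of Slc43a1 against eWAT without the mouse wt replicate 2 (0.0698) or ko replicate 2 (0.0587). Hlcs, which attaches biotin to the carboxylases, fell by 0.70 and 1.02.

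**Figure D2:**
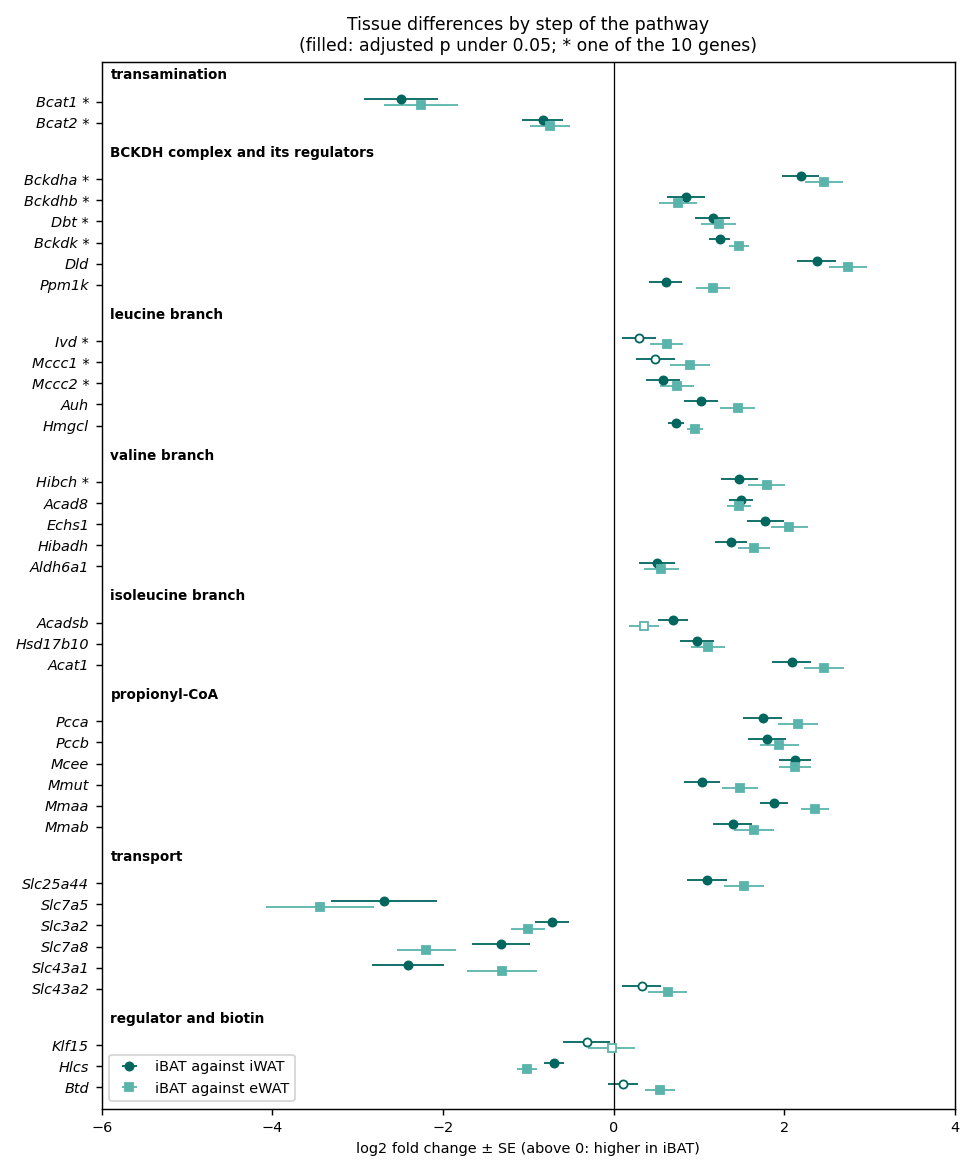
Log2 fold change ± SE of the genes of the pathway by step, for iBAT against iWAT (circles) and iBAT against eWAT (squares), filled where the adjusted p was under 0.05, with the 10 genes starred. Bcat1 and Bcat2 and 4 of the 6 transport genes lie left of 0 in both comparisons, while all 6 genes of the BCKDH step lie right of it.

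The subunits did not rise together, and this was examined with ratios of counts within a library, which do not depend on how libraries are scaled. Differences of 6 ratios between 3 pairs of tissues were tested with a two-sided exact permutation test over the 6 mice, for which the smallest p is 0.03125, and adjusted over the 18 tests. Every difference that passed had this smallest p. Their shared adjusted p of 0.0469 depends on how many tests reached it together, so that none could have passed alone. In iBAT the ratio of Bckdk to Bckdha lay between 0.173 and 0.194, whereas iWAT had 0.301 to 0.5001 and eWAT 0.330 to 0.475. It was lower in iBAT in each of the 6 mice, by 1.002 ± 0.24 log2 units (SD, n = 6) against iWAT and by 1.02 ± 0.20 against eWAT (adjusted p of the exact test 0.0469 for both), and iWAT and eWAT differed by -0.02 ± 0.41 (adjusted p 0.875). Relative to Bckdha, Bckdhb was lower in iBAT by 1.36 ± 0.13 against iWAT and 1.69 ± 0.18 against eWAT, and Dbt by 1.04 ± 0.18 and 1.24 ± 0.21 (adjusted p of the exact test 0.0469 for all 4, in all mice). Both ratios were also lower in iWAT than in eWAT in every mouse, by 0.34 ± 0.22 for Bckdhb and 0.20 ± 0.08 for Dbt (adjusted p of the exact test 0.0469). These 3 ratios stayed lower in iBAT without the 4 libraries, by 0.82 to 1.37 against iWAT (3 mice) and by 0.95 to 1.76 against eWAT (5 mice). The 61.7% of Bckdha that overlaps B3gnt8 enters all 3 of these ratios.

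Bckdk was 4.16 to 10.8 times Ppm1k in iBAT and 2.36 to 5.86 times in iWAT, a rise of 0.65 ± 0.33 log2 units in 6 of 6 mice (adjusted p of the exact test 0.0469). Against eWAT the difference was 0.34 ± 0.51, higher in 4 of 6 mice (adjusted p of the exact test 0.211), and it was 0.19 without the mouse ko replicate 1. These are counts and not levels per length, so only the differences between tissues can be read from them. The carboxylase subunits kept the most even ratio, Mccc1 having 1.31 to 1.80 times the counts of Mccc2 over all 18 libraries. That ratio was higher in iBAT than in eWAT by 0.15 ± 0.18 and in iWAT than in eWAT by 0.23 ± 0.09, each in 6 of 6 mice (adjusted p of the exact test 0.0469), and iBAT and iWAT differed by -0.08 ± 0.17 (adjusted p 0.211). Bcat1 relative to Bcat2 fell by 1.66 ± 0.91 in iBAT against iWAT (adjusted p of the exact test 0.0469), with a difference of -1.21 against eWAT, lower in 5 of 6 mice (adjusted p 0.0865), and -0.76 without the mouse wt replicate 1. When the 4 libraries were left out, the differences from iWAT were 0.38 for Bckdk to Ppm1k and -1.01 for Bcat1 to Bcat2 (3 mice, no test). Without pairing the mice, the calls for Bckdk to Ppm1k and for Mccc1 to Mccc2 between iBAT and eWAT were lost (adjusted p of the exact test 0.0992 and 0.110).

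**Figure D3:**
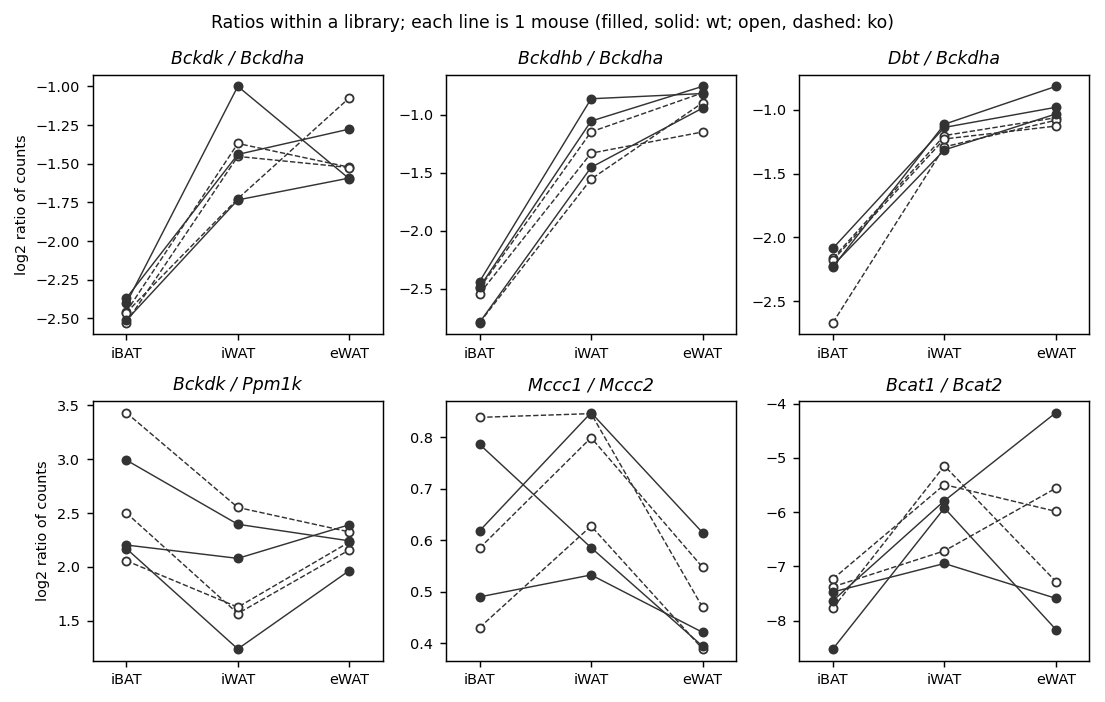
Log2 ratio of counts within a library for 6 pairs of genes, with 1 line per mouse through its iBAT, iWAT and eWAT libraries (filled and solid for wt, open and dashed for ko; the axes differ between panels). Bckdk, Bckdhb and Dbt relative to Bckdha are lowest in iBAT in all 6 mice, while the lines of Bcat1 to Bcat2 cross.

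Levels of different genes were compared per kilobase of annotated exon. Bckdha was highest in each tissue, with 492 ± 45.6 CPM per kb in iBAT, 108 ± 35.2 in iWAT and 89.3 ± 20.9 in eWAT (SD, n = 6), and Bcat1 lowest, with 0.0907 ± 0.0231, 0.513 ± 0.143 and 0.435 ± 0.372. In iBAT, Bckdhb (86.3 ± 12.1 CPM per kb), Ivd (73.9 ± 5.51), Mccc2 (61.9 ± 2.33), Dbt (58.6 ± 7.68), Hibch (54.5 ± 2.73), Bckdk (46.1 ± 4.45), Bcat2 (45.1 ± 7.84) and Mccc1 (24.6 ± 3.14) followed. Bckdk and Bcat2 could not be ordered there, Bckdk being higher in 3 of 6 libraries. Bcat2 stood at rank 8 in iBAT and at rank 2 in both white tissues, with 80.2 ± 27.7 CPM per kb in iWAT and 75.95 ± 25.2 in eWAT, below Bckdha in every library. This order depends on the length used. Per kilobase of the longest transcript, Bcat2 was above Bckdha in iWAT (150.4 ± 51.8 and 108 ± 35.2) and in eWAT (142 ± 47.3 and 89.3 ± 20.9), in 6 of 6 libraries each. In iBAT Bcat2 stood at rank 5 by that length, with 84.6 ± 14.7.

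Between the white depots, calls of these genes depended on which libraries were used. Between iWAT and eWAT, 0 of the 10 genes passed the edgeR test, where 10.2% of all genes did (5.7% higher and 4.5% lower in iWAT). None of the 10 had an unadjusted p under 0.05 from edgeR, where 25.5% of all genes did. For 0 of the 10 did the libraries of the tissues stay apart, where 4.62% of all genes did (2.3% higher and 2.33% lower in iWAT). With the 4 libraries left out, 6 of the 10 stayed apart, all higher in iWAT, where 10.8% of all genes were higher and 10.1% lower. The log2 fold changes lay between -0.09 (Bckdhb) and 0.40 (Mccc1). The iWAT libraries themselves were uneven. Without the 3 libraries with other-tissue markers, Ivd ranged from 395 to 430 CPM in iWAT, and in those 3 from 162 to 342 CPM. For Bckdha these ranges were 212 to 285 and 109 to 192 CPM, for Hibch 132 to 161 and 59.3 to 119 CPM and for Bcat2 283 to 449 and 220.3 to 255 CPM, with no overlap, and the same held for Bckdhb, Dbt, Bckdk and Mccc2. Mccc1 overlapped (209 to 257 and 84.6 to 229 CPM), as did Bcat1, which was not lower in those 3 (3.63 to 5.10 and 3.63 to 7.19 CPM). The share of all genes that lie apart in this split was not counted, so it is not shown to be particular to these genes. Without the 4 libraries, 6 genes were higher in iWAT than in eWAT, namely Ivd with 0.59 ± 0.13 (adjusted p from edgeR 0.0113), Mccc1 with 0.54 ± 0.15 (0.0357), Hibch with 0.54 ± 0.12 (0.00998), Bckdha with 0.50 ± 0.15 (0.0444), Bckdk with 0.37 ± 0.10 (0.0321) and Mccc2 with 0.35 ± 0.10 (0.0447). This leaves 3 iWAT and 5 eWAT libraries, and 5.7% of all genes were higher and 4.55% lower in iWAT in that fit. Brown adipocyte markers (7 genes) summed to 141, 296 and 325 CPM in those iWAT libraries and to 10.8 to 23.0 CPM in those eWAT libraries, with Ucp1 at 0 in 2 of the latter, and 4 of the 7 passed the test as higher in iWAT. The TCA cycle had 13 of 16 genes higher in the same fit, compared with 1 of 16 with all libraries. The part of brown adipocyte markers in these differences was not tested. Bcat1, Bcat2, Bckdhb and Dbt did not pass. Without eWAT wt replicate 1 as well, 4 genes were higher, Ivd with 0.49 (adjusted p from edgeR 0.00614), Hibch with 0.45 (0.00659), Mccc1 with 0.43 (0.0462) and Mccc2 with 0.26 (0.0446), where 5.64% of all genes were higher and 4.07% lower. Bckdha and Bckdk then had 0.40 and 0.32 (adjusted p 0.0608 for both). With all libraries, limma voom with the mouse as a random effect called 4 genes higher (Bcat1, Bckdk, Ivd and Mccc1), where 9.96% of all genes were higher and 9.49% lower. DESeq2 called 0 of the 10 and 15% of all genes. Leaving out only iWAT wt replicate 3 called Ivd (0.47, adjusted p from edgeR 0.0467) and 8.37% of all genes, and leaving out only eWAT wt replicate 1 called Bcat1 (0.92, adjusted p 0.0428) and 6.09% of all genes.

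**Figure D4:**
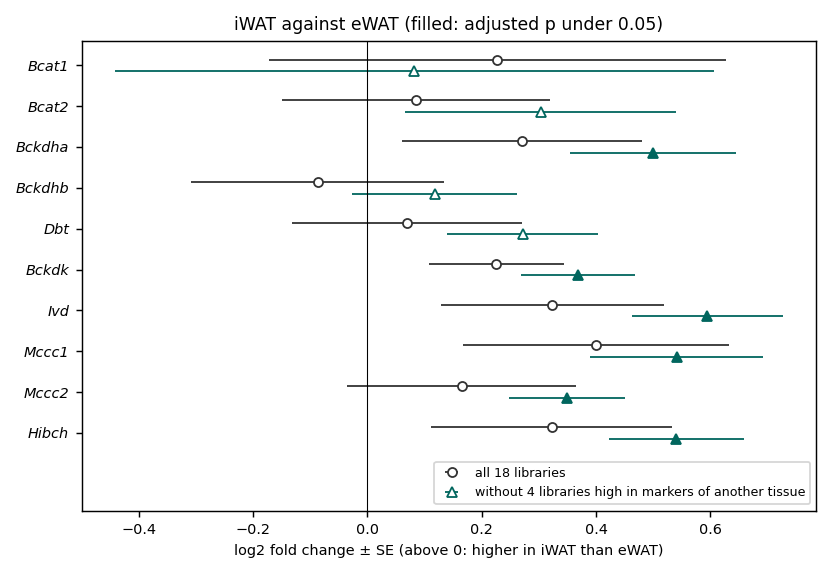
Log2 fold change ± SE of the 10 genes between iWAT and eWAT with all 18 libraries (circles) and without the 4 libraries high in markers of another tissue (triangles), filled where the adjusted p was under 0.05. No circle is filled and 6 triangles are, from Mccc2 at 0.35 to Ivd at 0.59.

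No change of these genes with the loss of Gm15551 was detectable at this number of mice. Across tissues, 0 of the 10 genes passed the edgeR test for ko against wt, where 0.00534% of all genes did, namely Gm15551 itself. The estimates lay between -0.16 (Bcat2, 95% confidence interval -0.57 to 0.24) and 0.05 (Bcat1, -0.66 to 0.76), and the smallest unadjusted p was 0.413, where 2.19% of all genes had an unadjusted p under 0.05. Bckdk had the narrowest interval, -0.23 to 0.17 around -0.03. These intervals take the 9 libraries of a genotype as separate samples, although they come from 3 mice. With the counts of each mouse summed over its tissues, edgeR called 0 of the 10 and 0% of all genes, the smallest unadjusted p of the 10 was 0.433, and the intervals of these 3 genes were wider, -0.65 to 0.47 for Bcat2, -1.01 to 0.99 for Bcat1 and -0.33 to 0.19 for Bckdk. Within iBAT, iWAT and eWAT 0 of the 10 genes passed, with background shares of 0%, 0% and 0.00534%, and 0 had an unadjusted p under 0.05, where 1.27%, 2.22% and 4.35% of all genes did. Leaving out the 4 libraries leaves 1 ko and 2 wt libraries in iWAT and 2 ko and 3 wt libraries in eWAT. In that fit edgeR called 0 of the 10 in all 4 genotype comparisons, where the share of all genes called was 0.0546% within iWAT and 0.00496% in each of the others, and the smallest unadjusted p was 0.410. The lone iWAT ko library is taken there to vary like the other groups. In no tissue did the 3 ko libraries lie apart from the 3 wt libraries for any of the 10, where 4.94%, 4.92% and 5.25% of all genes did. DESeq2 also called 0 of the 10 across tissues and within each tissue, where it called 0.0221% of all genes across tissues, 0.0711% in iBAT, 0.0219% in iWAT and 0.0711% in eWAT. Limma voom called 0 of the 10 as well, and 0.0107% of all genes across tissues, 0% in both iBAT and iWAT and 0.0214% in eWAT. The joint test for a genotype effect that differs between tissues called 0 of the 10 and 0% of all genes, with a smallest unadjusted p of 0.521 among the 10.

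The intervals within a tissue were wide, and the largest estimates belonged to Bcat1. In eWAT it had 10.8, 2.09 and 1.28 CPM in wt replicates 1 to 3 and 3.95, 2.35 and 3.86 CPM in ko replicates 1 to 3, which overlap fully. The estimate was -0.49 with an interval of -1.72 to 0.75, and 0.996 without wt replicate 1 and 0.32 in limma voom, none of which passed the test. Dbt in eWAT had 75.4, 103 and 102 CPM in wt and 85.1, 87.4 and 50.5 CPM in ko, the last being the library with epididymis markers. That estimate was -0.33. For Bckdha in iBAT, where it is highest, wt libraries had 986, 924 and 806 CPM and ko libraries 1041, 982 and 867 CPM, an estimate of 0.09. The ko library was the higher one by 55.6, 58.2 and 61.0 CPM within same-numbered pairs, and with the replicate number as a term the estimate was 0.09 ± 0.31 (unadjusted p from edgeR 0.778). The difference had 1 sign in all 3 pairs for 3 of the 10 genes in iBAT (Bckdha and Bckdhb higher and Bcat2 lower in ko), where 19.8% of all genes had this. For iWAT and eWAT it was 0 of the 10, where 3161 and 3171 of the 18728 genes tested had this. Whether mice of a number share a litter is not stated in the labels.

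**Figure D5:**
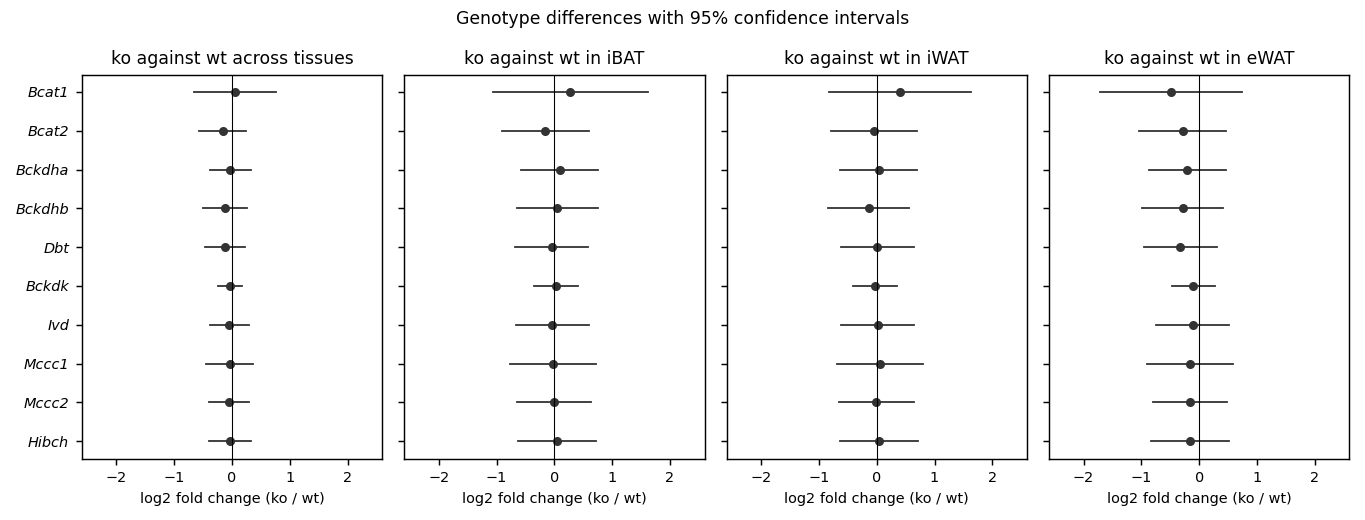
Log2 fold change of ko against wt for the 10 genes, with 95% confidence intervals, across tissues and within iBAT, iWAT and eWAT. All intervals include 0, and the widest are those of Bcat1.

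For each gene, the tested genes with the most similar pattern were sought by the root mean square difference of log2 CPM, centred on each gene's mean, over the 18 libraries. The nearest to Hibch was Hibadh, the next enzyme of the valine route (0.113 log2 units), and Mccc2 was among the 3 nearest to Mccc1 (0.156). Bckdk was nearest to Kcmf1 (0.0827), followed by the mitochondrial ribosomal protein genes Mrps33 and Mrpl10, and Bckdha to C030006K11Rik (0.0999), followed by Ndufab1 and Bola3. Dbt was nearest to Gys1 (0.143), followed by Cluh and Iars2, Bckdhb to Apmap (0.149), which was also the second for Mccc2 (0.116), and Ivd to Lman2l (0.156). Bcat2 and Bcat1 had no close neighbour, the nearest being Rrs1 (0.246) and Ttc9 (0.497). Libraries share depth and tissue composition, so these distances are descriptions only.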

How the data were processed

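Polyadenylated RNA of 3 adipose tissues from 6 mice was sequenced as paired ends. The authors used cutadapt for filtering and salmon for quantification against GENCODE M22 (GRCm38) or its union with RNAcentral, and deposited a table of estimated counts per gene, which holds unnormalised whole numbers. Which reference applies, whether strand was used and how transcripts were summed to genes is not given in the sources used here. Salmon divides shared reads by a model, which leaves overlapping genes uncertain. Groups and replicate numbers came from the titles, and mice from an identifier in the labels, by which libraries of the same genotype and number are the same animal. Same-mouse libraries deviated from their group means with a median correlation of 0.0573 (18 pairs, -0.17 to 0.33). P-values of the main fit measure the spread between libraries, since its model has no term for the mouse. Those of the exact test of ratios measure the spread between mice.

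The 10 genes and all lists were chosen with earlier results of these data known. Genes named were the 10, the genes of the pathway lists, the marker and comparison lists by counts and sums, Gm15551, and the 3 genes nearest to each of the 10. Low counts were removed with filterByExpr of edgeR 4.0.16 (R 4.3.3), libraries were scaled by the trimmed mean of M values (TMM), and quasi-likelihood F-tests used a model of tissue and genotype or of 6 group means, with Benjamini-Hochberg adjustment and a threshold of 0.05. SE was obtained as log2 fold change over √F. Ratios used the count plus 0.5. Distances used log2 CPM with a prior count of 2. Positions and exon lengths were from GENCODE M21, in which the identifiers of the 10 genes were the same. A count of 0 allows up to 3 counts, for counting error only. Scripts were tested on simulated data. Alternatives were DESeq2 size factors, removal of mitochondrial genes, DESeq2 1.42.0, no filter or a minimum of 10 counts per library, voom of limma 3.58.1 with the mouse as a random effect, a replicate block, counts summed per mouse, single tissues, wild type only, leaving out libraries or mice, a pseudocount of 5, no pairing, and another length. Adding the counts of overlapping genes, and leaving out eWAT wt replicate 1 with the 4 libraries, were chosen after seeing the data.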

Additional observations from a re-analysis of the deposited data

Results flagged for a closer look

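The level of each of the 10 genes and of 6 ratios was examined in the 6 libraries of each tissue for a library far from the rest, 48 values in all, of which chance alone would flag about 2.4 at 1 in 20. In eWAT, Bcat1 had 10.8 CPM in wt replicate 1, with 3.95 CPM in the next library, a gap of 0.721 of the whole range, above the 95% critical value of Dixon for 6 libraries. The same library had 16.4 CPM of epididymis markers, with at most 2.12 CPM in the other eWAT libraries apart from ko replicate 3, and the lowest adipocyte marker sum outside the 4 libraries named in the report (15463 CPM); their part in the Bcat1 value was not tested. In iBAT, the log2 ratio of Dbt to Bckdha was -2.67 in ko replicate 2, with -2.23 in the next library, a gap of 0.748 of the range.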

How the results depend on the processing

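Over all alternatives, the iBAT differences of the 10 genes kept their sign in 680 of 682 values, the exceptions being Ivd against iWAT without the 4 libraries high in other-tissue markers (-0.02) and without eWAT wt replicate 1 as well (-0.00364). All of these alternatives scaled the libraries by TMM or by DESeq2 size factors, and many only leave out a library or mouse. They do not show whether the signs hold without such scaling, which was not tested. The replicate block, with the mouse as a term for tissues and the replicate number for genotypes, changed no call of the 10 genes, with 6 higher and 2 lower, 8 higher and 2 lower, and 0 between the white tissues. With at least 10 counts in every library Bcat1 was not tested, which left 1 gene lower in each iBAT comparison. With wild type libraries only, 4 genes were higher and 1 lower in each iBAT comparison. Of all genes, 17.9% were higher and 19.8% lower against iWAT in that fit, and 19.4% and 18.3% against eWAT. Between iWAT and eWAT, voom called 4 genes higher, the fit without the 4 libraries 6 and the fit that also left out eWAT wt replicate 1, chosen after seeing the data, 4. Leaving out 1 library or mouse gave 1 to 2 genes lower in iBAT than in eWAT and 0 to 1 higher in iWAT than in eWAT. Without pairing the mice, the log2 ratio Bckdk to Ppm1k, iBAT against iWAT, kept its value of 0.65 and the log2 ratio Mccc1 to Mccc2, iBAT against eWAT, its 0.15, with adjusted p of the exact test of 0.0992 and 0.110. Without the 4 libraries, the log2 ratio Dbt to Bckdha, iWAT against eWAT, was -0.29. Apart from the filter, the cause of these changes was not tested. With a mouse left out, the exact test of a ratio cannot go below 0.0625, so that only the size of the ratio was compared. Wild type and knockout mice of a number are different animals, and no label used here states a shared litter or batch. The identifiers of both mice of a number share a prefix and lie close in their digits, with another prefix for replicate 2 than for the rest. Libraries of such mice in a tissue correlated between -0.47 and 0.55 (9 pairs). The lowest and the highest value belong to iWAT pairs that hold a library high in other-tissue markers, and the iBAT pairs had -0.03 to 0.28. These values cannot tell whether mice of a number share an origin, and the numbers were not taken as pairs. Bcat1 is limited by depth, with 9 to 18 counts in iBAT, and so is Slc7a5 with 9 to 22.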
